A study of Mus musculus with 60 samples.

Results

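Cdkn1a, Gadd45g, Mdm2, Ddb2, Sesn1, Trp53 and Cables1 are 7 of the 770 genes of the nanoString nCounter Mouse Neuroinflammation Panel, a probe set that counts RNA molecules directly by hybridization, without amplification. They are the gene of p53 (Trp53), that of its inhibitor Mdm2, and genes that p53 or other stress signals switch on to stop growth or aid repair, together with the kinase adaptor Cables1. These genes were chosen by name with results of the same data known, among them how they differed between tumor-bearing and vehicle injected mice at each time of day, so for the tumor comparisons their values are given as a description with no p for a single gene, and counts past a threshold only beside the share of the panel. All 7 had values in every sample analysed.

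The mice were 20 females of the Balb/C strain, 13 weeks of age and kept in 14 h of light and 10 h of dark. Tumor-bearing mice had received a suspension in DMEM medium of 67NR, non-metastatic mammary carcinoma cells derived from a single spontaneous mouse tumor, into the fourth and ninth inguinal mammary glands, and vehicle injected mice had received DMEM without cells. Brains were collected from perfused mice 25 days later at mid-dark (zeitgeber time, ZT, 19) or mid-light (ZT 7), 5 mice in each of the 4 groups, and hippocampus (HPC), hypothalamus (HYP) and brain stem (BS) of the same mice were assayed. Of 60 samples, 56 had values: the brain stem of 1 vehicle injected mid-dark mouse, the hypothalamus of 2 others of that group and the hypothalamus of 1 vehicle injected mid-light mouse were not analysed here. Values are normalized log2 values, so a difference of 1 is a doubling. Levels were not compared between genes, since each gene has its own probe. The samples are pieces of whole tissue, in which fewer cells of a type and less RNA per cell cannot be told apart.

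Slc17a7 and Tbr1, genes of cortical and hippocampal glutamatergic neurons, had medians of 12.99 and 8.02 in hippocampus, against 7.43 and 4.56 for hypothalamus and 10.07 and 3.89 for brain stem. Slc17a6, the glutamate transporter of neurons below the cortex, had medians of 13.15 in hypothalamus, 12.87 in brain stem and 8.58 in hippocampus. Mog, a myelin gene of oligodendrocytes, had its highest median, 11.46, in brain stem, then 10.32 in hypothalamus and 9.98 in hippocampus. The tissue labels and these region genes matched. The RNA absorbance ratio (260/280) in the labels was under 1.8 in 6 samples, among them 3 of the 5 tumor-bearing mid-dark brain stems (lowest 1.34). Another absorbance ratio in the labels was lowest in hypothalamus samples of tumor-bearing mice, and no sample was left out by it.

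The transcription factor p53 (Trp53) halts the cell cycle and induces repair or cell death after DNA damage and other stress. Its protein is regulated mostly through degradation by Mdm2, which p53 itself induces, so the Trp53 transcript is not a measure of p53 activity. Cdkn1a encodes p21, the inhibitor of cyclin-dependent kinases through which p53 arrests the cycle. Ddb2 recognises ultraviolet damage for nucleotide excision repair, and Sesn1 is a sestrin that restrains growth signaling under stress. Gadd45g is a small stress-induced protein that activates stress kinases and binds p21, and Cables1 is an adaptor of the kinases Cdk5 and Abl. In brain, p21 is known both from dividing precursors and from cells that have left the cycle. Mice are nocturnal, so mid-dark falls in their active period.

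RefSeq promoter windows (build GRCm38.p6, 250 bases before to 50 after a transcript start) were at hand for 5 of the 7 genes, 7 windows in all. Those of Cdkn1a, Trp53 and Gadd45g are shown 5' to 3' because the differences described next turn on these genes. Capitals mark matches to the p53 half-site consensus or to the E-box CACGTG, searched on both strands. For Cdkn1a the window is that of the upstream start, chr17:29090729-29091028, plus strand. For Trp53 it is chr11:69580109-69580408, plus strand, and for Gadd45g chr13:51846425-51846724, plus strand.

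Cdkn1a: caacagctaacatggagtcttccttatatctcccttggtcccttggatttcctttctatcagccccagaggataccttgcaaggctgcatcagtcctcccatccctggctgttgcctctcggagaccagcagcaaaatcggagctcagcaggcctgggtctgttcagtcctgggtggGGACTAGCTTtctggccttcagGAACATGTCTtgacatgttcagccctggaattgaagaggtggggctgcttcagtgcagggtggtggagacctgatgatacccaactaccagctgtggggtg

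Trp53: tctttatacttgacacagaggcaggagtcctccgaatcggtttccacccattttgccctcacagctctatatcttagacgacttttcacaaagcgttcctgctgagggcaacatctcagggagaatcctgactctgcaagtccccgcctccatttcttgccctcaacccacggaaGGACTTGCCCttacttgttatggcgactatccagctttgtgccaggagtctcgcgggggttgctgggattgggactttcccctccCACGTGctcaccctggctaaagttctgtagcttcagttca

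Gadd45g: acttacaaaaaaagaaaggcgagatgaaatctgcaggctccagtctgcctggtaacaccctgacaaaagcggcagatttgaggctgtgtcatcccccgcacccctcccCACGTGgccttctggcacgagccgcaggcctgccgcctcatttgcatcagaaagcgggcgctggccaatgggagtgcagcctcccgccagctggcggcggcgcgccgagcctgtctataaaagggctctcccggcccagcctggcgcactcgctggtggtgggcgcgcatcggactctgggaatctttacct

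The Cdkn1a window held 2 half-site matches, which begin at -73 and -51 from the transcript start. The Trp53 window held 1 at -75, and the windows of Mdm2 and of the downstream start of Sesn1 held 1 each, while those of Gadd45g, of the downstream Cdkn1a start and of the upstream Sesn1 start held none. Among 32851 windows of this length, 8.36% held such a match. CACGTG was in the windows of Gadd45g, at -142, and of Trp53, at 10, and in 7.15% of all windows. The cyclic AMP response element TGACGTCA, in 1.79% of all windows, was in none of the 7. None of the capitals overlapped each other, and a match describes letters in a window and says nothing of binding in these brains.

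Time of day was compared as mid-dark minus mid-light, averaged over tumor-bearing and vehicle injected mice. Cdkn1a rose at mid-dark in hippocampus and brain stem and over the 3 regions together, Cables1 rose with it in the same comparisons, and Trp53 fell in hypothalamus. Mdm2, Ddb2, Sesn1 and Gadd45g passed the test in no region and not over the 3 regions. Whether phase results also played a part in the choice of these genes is not recorded. With equal group sizes, as in hippocampus, the estimated phase difference is uncorrelated with the estimated tumor differences that were known. In hypothalamus and brain stem, and so over the 3 regions, group sizes were unequal and this does not hold. The contrasts of a region also share the same estimate of spread, so the phase p values are not free of the choice.

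**Figure D1:**
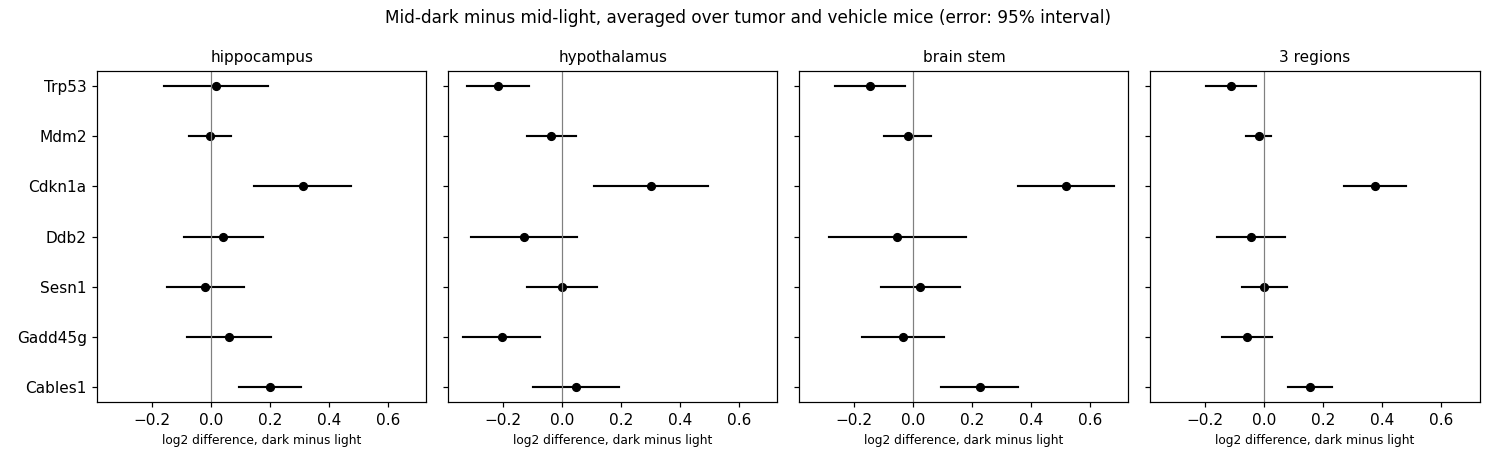
Mid-dark minus mid-light difference on the log2 scale (x axis) for each of the 7 genes (y axis) in hippocampus, hypothalamus, brain stem and the 3 regions together, averaged over tumor-bearing and vehicle injected mice. Points are limma estimates and lines their 95% intervals. Cdkn1a lies to the right of 0 in every panel, between 0.30 and 0.52, and Mdm2 and Sesn1 lie within 0.04 of 0.

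In brain stem, the Cdkn1a values of vehicle injected mice at mid-dark were 8.69, 8.86, 8.87 and 8.89, and the mid-light mice had 7.94, 8.05, 8.28, 8.29 and 8.31. Tumor-bearing mice had 8.76, 8.84, 8.90, 8.92 and 9.02 when collected at mid-dark, compared with 8.21, 8.38, 8.42, 8.69 and 8.85 when collected at mid-light. The phases did not overlap in vehicle injected mice and overlapped in tumor-bearing mice through 1 mid-light mouse, which lay above 2 of the mid-dark mice. Cdkn1a was 1.43-fold higher at mid-dark in brain stem (log2 difference 0.52, SE 0.08, 9 against 10 mice, limma, adjusted p = 6.09e-04). It rose by 0.31 in hippocampus (SE 0.08, 10 against 10 mice, limma, adjusted p = 0.0248). The hypothalamus had a difference of like size, 0.30 (SE 0.09, 8 against 9 mice), that did not pass (limma, adjusted p = 0.109). Over the 3 regions, with the mouse as a block, the difference was 0.38 (SE 0.05, limma, adjusted p = 3.82e-07), and Cdkn1a ranked 7 of 770 genes by p. The hippocampus call was near the threshold and was lost without mouse 2 (limma, adjusted p = 0.0513), mouse 7 (0.0502) or mouse 32 (0.0522). The brain stem call and the call over the 3 regions were kept in every alternative computed. Without the samples of a 260/280 ratio under 1.8, the brain stem difference of Cdkn1a was 0.54 (limma, adjusted p = 0.0159).

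The sizes in the separate tumor groups are given as values alone. Cdkn1a differed between mid-dark and mid-light by 0.65 in vehicle injected and 0.38 in tumor-bearing mice in brain stem, by 0.46 and 0.14 in hypothalamus, and by 0.35 and 0.27 in hippocampus. In each region the difference was smaller in tumor-bearing mice, whose mid-light values spread the most. Their SD at mid-light was 0.26 in brain stem, 0.30 in hypothalamus and 0.25 in hippocampus, against 0.10, 0.04 and 0.14 at mid-dark.

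**Figure D2:**
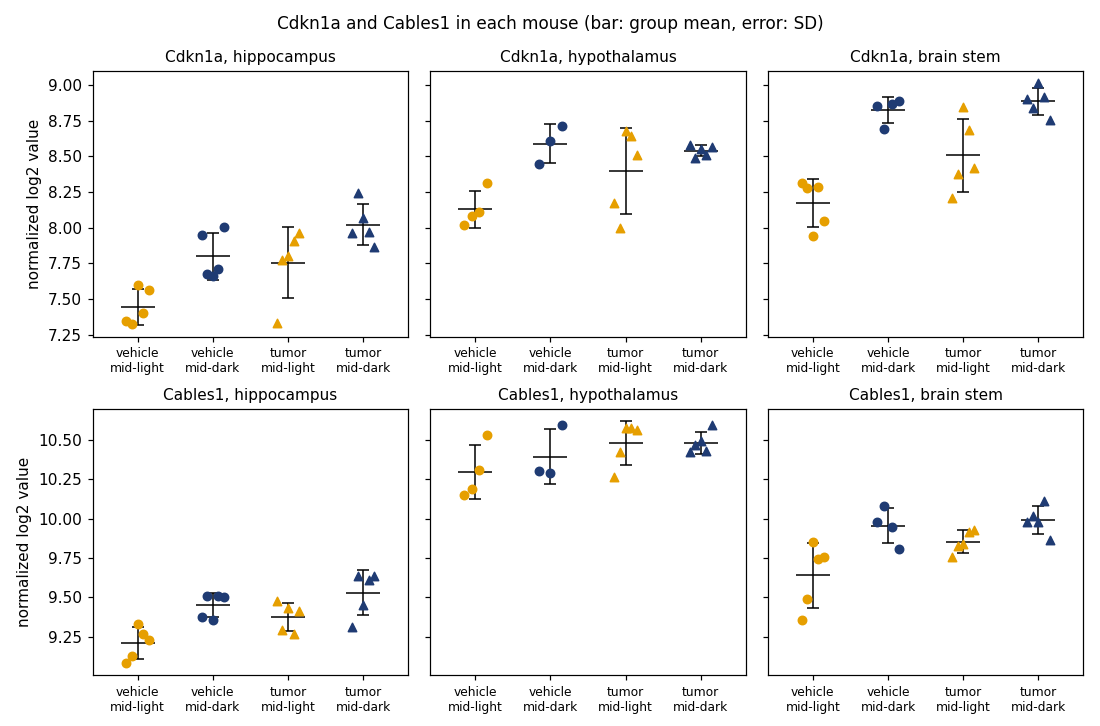
Normalized log2 values (y axis) of Cdkn1a (top) and Cables1 (bottom) in each mouse by group (x axis), with hippocampus, hypothalamus and brain stem from left to right. Circles are vehicle injected and triangles tumor-bearing mice, orange is mid-light and blue mid-dark, and bars and error bars are group means and SD (3 to 5 mice). In brain stem every vehicle injected mouse had at least 8.69 for Cdkn1a at mid-dark and at most 8.31 at mid-light.

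Cables1 rose at mid-dark by 0.20 in hippocampus (SE 0.05, limma, adjusted p = 0.0253) and by 0.23 in brain stem (SE 0.06, limma, adjusted p = 0.0398). In hippocampus its values ran from 9.31 to 9.64 at mid-dark (median 9.51, 10 mice) and from 9.08 to 9.48 at mid-light (median 9.28, 10 mice). The phases overlapped, with 6 mid-dark mice above all mid-light mice. In hypothalamus the Cables1 difference was 0.05 (SE 0.07, limma, adjusted p = 0.869), and over the 3 regions it was 0.16 (SE 0.04, limma, adjusted p = 0.00269). The regional calls for Cables1 were close to the threshold. That in hippocampus was lost without mouse 2, 5, 7 or 32 (limma, adjusted p between 0.0502 and 0.0562), and that in brain stem without any of 12 mice (1, 3, 4, 5, 6, 7, 9, 11, 12, 13, 19 and 28, adjusted p between 0.0524 and 0.0989) or without the samples of a low 260/280 ratio (difference 0.20, adjusted p = 0.135), while the differences stayed between 0.18 and 0.23. The call for Cables1 over the 3 regions was kept in every alternative computed.

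Trp53 went the other way in hypothalamus, where it fell by 0.22 at mid-dark (SE 0.05, 8 against 9 mice, limma, adjusted p = 0.032). The hypothalamic values of Trp53 were 7.66, 7.75 and 7.84 in vehicle injected mid-dark mice and 7.82, 7.91, 7.91 and 8.10 in vehicle injected mid-light mice. Tumor-bearing mice had 7.41, 7.60, 7.60, 7.61 and 7.63 at mid-dark, compared with 7.76, 7.76, 7.77, 7.88 and 7.91 for the mid-light mice. The phases did not overlap in tumor-bearing mice, and in vehicle injected mice 1 value at mid-dark lay above the lowest at mid-light. This call was lost without any of 10 mice (2, 3, 5, 7, 8, 9, 19, 22, 28 and 30), with an adjusted p of at most 0.108 and a difference between -0.22 and -0.19. In brain stem the Trp53 difference was -0.14 (SE 0.06, limma, adjusted p = 0.19; 0.0374 without mouse 1, difference -0.18), and in hippocampus it was 0.02 (limma, adjusted p = 0.938). Over the 3 regions it was -0.11 (SE 0.04, limma, adjusted p = 0.0737), which passed without mouse 1 (0.011), mouse 10 (0.0255) or mouse 32 (0.0445), and without the mouse block (0.0315).

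The remaining genes had differences of small size over the 3 regions. The 95% interval over the 3 regions was -0.06 to 0.03 for Mdm2, -0.07 to 0.08 for Sesn1, -0.16 to 0.07 for Ddb2 and -0.14 to 0.03 for Gadd45g. All 4 intervals held 0. Hypothalamic Gadd45g was at -0.20 (SE 0.06, limma, adjusted p = 0.109), and its 2 tumor groups are described with the tumor comparisons.

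Of the 7 genes, 2 passed an adjusted p of 0.05 in hippocampus (5.59% of 769 genes tested on the panel did), 1 in hypothalamus (2.34% of 770), 2 in brain stem (4.94% of 769) and 2 over the 3 regions (13.5% of 770). The median difference of the 7 genes for hippocampus, hypothalamus and brain stem was 0.04, -0.04 and -0.02, beside panel medians of 0.01, 0.00 and 0.00. The direction was mixed, since 5, 2 and 3 of the 7 genes were above 0 in these regions.

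Markers of other cell types were read beside the phase results. Of 6 oligodendrocyte markers, 4 fell at mid-dark over the 3 regions and none rose: the 3 with the smallest p were Opalin, which fell by 1.11, Cnp, which fell by 0.28, and Mag, which fell by 0.36 (limma, adjusted p = 3.91e-19, 2.47e-05 and 6.10e-05). The list's median was -0.30 beside 0.01 for the panel. The summed level of the list (log2 of the sum) ran from 14.36 to 15.49 at mid-dark and 15.08 to 15.72 at mid-light in hippocampus. Hypothalamus had 15.32 to 16.06 and 15.41 to 16.02, and brain stem 16.35 to 16.47 and 16.40 to 16.53. The phases overlapped in each region, and the part of these markers in the Cdkn1a, Cables1 and Trp53 results was not tested. Of 4 neuron markers, 5 microglia markers and 5 T and NK cell markers, none passed. The summed level of the T and NK cell markers ran only from 5.47 to 6.22 (log2 of the sum). That is low for 5 genes together, so their result says little about such cells. Sox9 rose among 5 astrocyte markers (0.13, limma, adjusted p = 0.0282), and Cldn5, a tight junction gene, among 5 endothelial markers (0.37, limma, adjusted p = 8.99e-07). The summed levels of both lists overlapped between the phases in each region, and no change of either cell type is read from a single marker. Ttr, the 1 choroid plexus marker, ran from 5.36 to 14.71 among hippocampus samples and from 6.49 to 13.77 among brain stem samples, with no phase difference that passed (limma, adjusted p = 0.731).

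The 3 regions were compared with the mouse as a block. Cables1 was lowest in hippocampus, intermediate in brain stem and highest in hypothalamus, Cdkn1a rose from hippocampus to hypothalamus to brain stem, and Sesn1 and Trp53 were highest in hippocampus. Cables1 had medians of 9.39, 9.86 and 10.43 in hippocampus, brain stem and hypothalamus, and no hypothalamus sample (lowest 10.15) fell within the range of the other regions (highest 10.11). Its level in hypothalamus was 2.03-fold that in hippocampus (log2 difference -1.02 for hippocampus minus hypothalamus, SE 0.04, limma, adjusted p = 3.2e-28) and 1.47-fold that in brain stem (0.56, SE 0.04, limma, adjusted p = 2.19e-17).

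Cdkn1a had medians of 7.79 in hippocampus (7.32 to 8.24, 20 mice), 8.51 in hypothalamus (8.00 to 8.72, 17 mice) and 8.69 in brain stem (7.94 to 9.02, 19 mice). Hippocampus was lower than hypothalamus by a log2 difference of 0.66 (fold 1.58, limma, adjusted p = 2.07e-15) and lower than brain stem (fold 1.79, limma, adjusted p = 3.77e-20). The difference between hypothalamus and brain stem was smaller, at -0.18 for hypothalamus minus brain stem (SE 0.05, limma, adjusted p = 0.00295), and the range of the hypothalamus lay within that of the brain stem. All 6 oligodendrocyte markers also differed between hypothalamus and brain stem, each lower in hypothalamus, and their part in the regional order of Cdkn1a was not tested.

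Sesn1 went in the opposite order, with a hippocampal median of 10.67, a hypothalamic median of 10.27 and a brain stem median of 10.09, and each step passed (0.37 and 0.24, limma, adjusted p = 8.34e-12 and 8.69e-07). Trp53 was higher in hippocampus than in hypothalamus by 0.25 (limma, adjusted p = 1.3e-06) and than in brain stem by 0.34 (limma, adjusted p = 3.42e-10), and the latter 2 differed by 0.09 (95% interval 0.00 to 0.18, adjusted p = 0.0706), which passed without mouse 7 (0.0475) or mouse 13 (0.0451). Ddb2 stood higher in hypothalamus than in hippocampus, by 0.32, and than in brain stem, by 0.38 (limma, adjusted p = 3.71e-06 and 3.64e-07), with medians of 7.03, 6.70 and 6.66. Hippocampus and brain stem did not differ beyond their spread for Ddb2 (0.05, 95% interval -0.06 to 0.17, limma, adjusted p = 0.407). Gadd45g was lower in brain stem than in hippocampus, by 0.33, and than in hypothalamus, by 0.26 (limma, adjusted p = 1.12e-09 and 2.07e-06), while the latter pair differed by 0.07 (95% interval -0.01 to 0.16, adjusted p = 0.124). Mdm2 varied least, with medians of 10.20, 10.16 and 10.09 in hippocampus, hypothalamus and brain stem; brain stem was lower by 0.10 and 0.08 (limma, adjusted p = 2.41e-05 and 0.00161).

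Regional differences were the rule on the panel. Between hippocampus and hypothalamus 5 of the 7 genes passed (71.7% of the panel), between hippocampus and brain stem 6 (76.6%) and between hypothalamus and brain stem 6 (66.5%). These counts are close to what the panel's shares give for 7 genes, and no more is read from them.

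**Figure D3:**
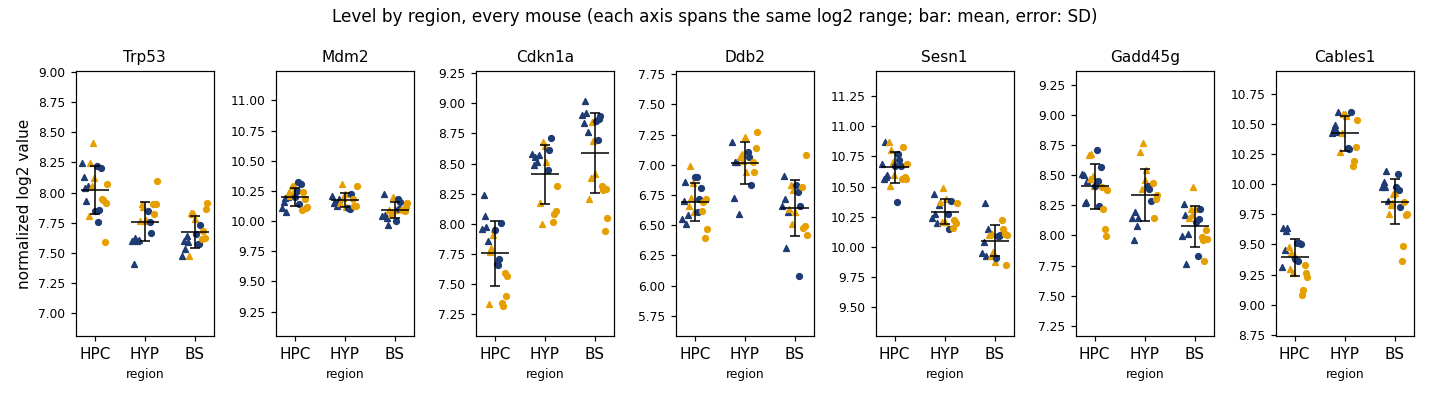
Normalized log2 values (y axes, each spanning the same range) of the 7 genes in every sample by region (x axis; HPC hippocampus, HYP hypothalamus, BS brain stem). Circles are vehicle injected and triangles tumor-bearing mice, orange is mid-light and blue mid-dark, and bars and error bars are the region's mean and SD (20, 17 and 19 mice). Cables1 medians run from 9.39 to 10.43, while those of Mdm2 stay between 10.09 and 10.20.

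Tumor-bearing and vehicle injected mice were compared at each time of day, and the difference of these differences (mid-dark minus mid-light) is the interaction of tumor and phase. Gadd45g was higher in tumor-bearing mice at mid-light in all 3 regions and not at mid-dark, so that its interaction was below 0 throughout. The 3 regions come from the same mice and the gene was chosen with such contrasts known, so likeness between regions is not replication. How many panel genes separate the groups as clearly is not given, and the values that follow are a description. In hypothalamus the Gadd45g values were 8.15, 8.30, 8.33 and 8.44 in vehicle injected and 8.39, 8.46, 8.54, 8.69 and 8.77 in tumor-bearing mice at mid-light. At mid-dark they were 8.29, 8.39 and 8.41 in vehicle injected and 7.96, 8.08, 8.15, 8.15 and 8.19 in tumor-bearing mice. The tumor-bearing mice lay below every vehicle injected mouse at mid-dark, 4 of 5 lay above every vehicle injected mouse at mid-light, and their own phases did not overlap. The differences were 0.27 at mid-light (SE 0.08) and -0.26 at mid-dark (SE 0.09), and the interaction was -0.52 (SE 0.12), with vehicle injected mice nearly alike at both times (0.06 between mid-dark and mid-light).

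In hippocampus, Gadd45g was 8.00, 8.06, 8.22, 8.38 and 8.40 in vehicle injected mice and 8.41, 8.47, 8.49, 8.67 and 8.68 in tumor-bearing mice at mid-light. At mid-dark the values were 8.24, 8.41, 8.45, 8.57 and 8.71 in vehicle injected and 8.27, 8.28, 8.45, 8.50 and 8.51 in tumor-bearing mice. The groups were separate at mid-light and overlapped at mid-dark. The interaction was -0.40 (SE 0.14), made of 0.33 at mid-light and -0.07 at mid-dark. In brain stem the mid-light values of Gadd45g were 7.79, 7.96, 7.97, 7.99 and 8.05 in vehicle injected and 8.15, 8.17, 8.22, 8.22 and 8.40 in tumor-bearing mice, again without overlap. The brain stem interaction was -0.31 (SE 0.13), with differences of 0.28 at mid-light and -0.03 at mid-dark. Without the samples of a 260/280 ratio under 1.8, 3 of which were tumor-bearing mid-dark brain stems, the mid-dark difference was 0.14 and the interaction -0.15.

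**Figure D4:**
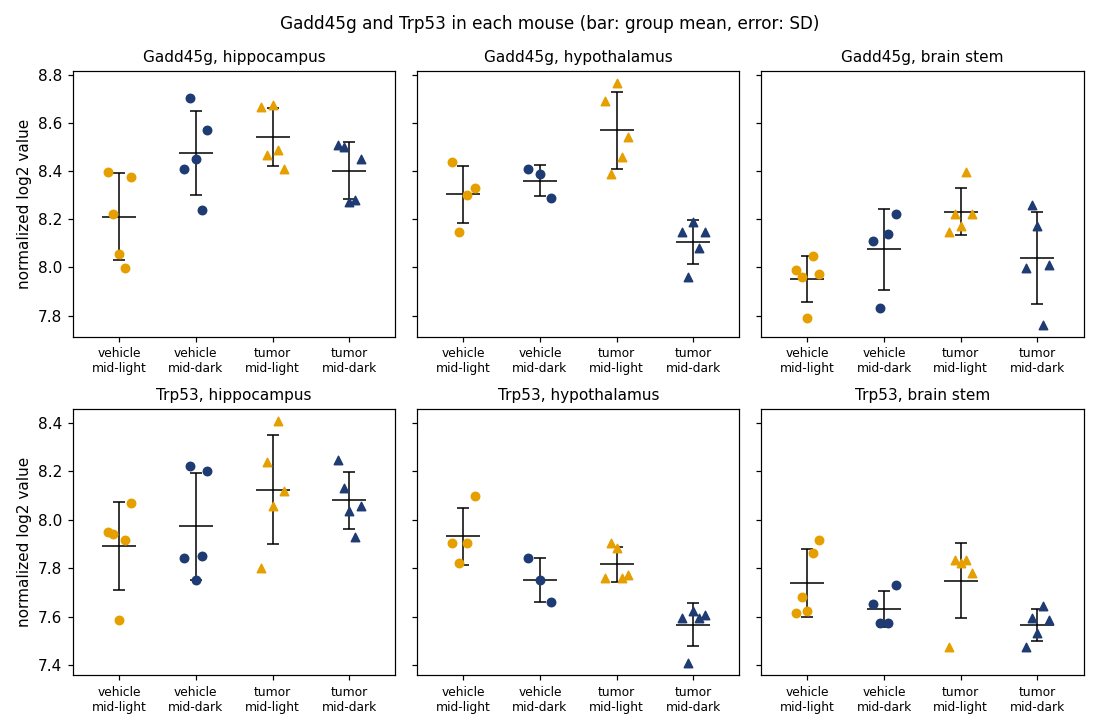
Normalized log2 values (y axis) of Gadd45g (top) and Trp53 (bottom) in each mouse by group (x axis), with hippocampus, hypothalamus and brain stem from left to right. Circles are vehicle injected and triangles tumor-bearing mice, orange is mid-light and blue mid-dark, and bars and error bars are group means and SD (3 to 5 mice). Hypothalamic Gadd45g in tumor-bearing mice lies between 8.39 and 8.77 at mid-light and between 7.96 and 8.19 at mid-dark.

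Cdkn1a was likewise higher in tumor-bearing mice at mid-light, with hippocampal, hypothalamic and brain stem differences of 0.31 (SE 0.11), 0.27 (SE 0.12) and 0.33 (SE 0.11). At mid-dark its differences were 0.22, -0.05 and 0.06 in the same order. Its interactions were -0.09, -0.32 and -0.27, with SEs of 0.16, 0.18 and 0.15. Cables1 had mid-light differences of 0.17, 0.18 and 0.21 and mid-dark differences of 0.08, 0.09 and 0.04, with interactions of -0.09, -0.10 and -0.18. For both genes the mid-light difference was thus the greater in each region, and the vehicle injected mid-light group, which enters both this and the phase comparison, had the lowest mean of the 4 groups.

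The tumor differences of Ddb2 and Mdm2 changed sign between the phases in hippocampus. Ddb2 had differences of 0.19 at mid-light and -0.14 at mid-dark, with an interaction of -0.33 (SE 0.13). Mdm2 had differences of 0.10 and -0.10 with an interaction of -0.20 (SE 0.07). Elsewhere their interactions lay between -0.07 and 0.04, with those of Mdm2 at 0.01 and -0.04. The brain stem interaction of Ddb2, 0.04, had an SE of 0.22 and ran from -0.13 to 0.15 over the alternatives computed. Without the samples of a low 260/280 ratio the brain stem interaction of Mdm2 was 0.03. Whether the effect in hippocampus differed from that in the other regions was not tested.

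Trp53 was 0.23 higher in tumor-bearing mice at mid-light in hippocampus (SE 0.12) and 0.11 higher at mid-dark. In hypothalamus it was lower at both times, -0.12 at mid-light (SE 0.07) and -0.19 at mid-dark (SE 0.07). Its interactions were -0.13, -0.07 and -0.08 in hippocampus, hypothalamus and brain stem. Sesn1 had interactions of -0.03, -0.07 and 0.13, with tumor differences between -0.09 and 0.10.

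**Figure D5:**
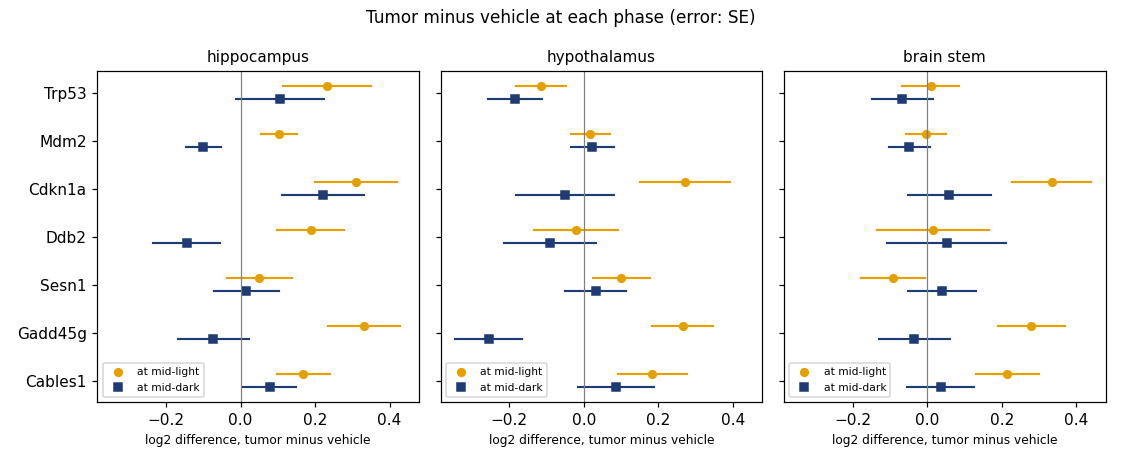
Tumor-bearing minus vehicle injected difference on the log2 scale (x axis) for the 7 genes (y axis) in each region, at mid-light (orange circles) and mid-dark (blue squares). Points are limma estimates and lines are 1 SE to each side. Gadd45g has its mid-light point at 0.27 to 0.33 and its mid-dark point at or below -0.03 in all 3 panels.

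Across the genes, all 7 interactions were below 0 in hippocampus, 6 of 7 in hypothalamus and 5 of 7 in brain stem. The medians of the 7 genes were -0.13, -0.07 and -0.08, beside panel medians of 0.01, 0.01 and 0.00. At mid-light, 7 of the 7 tumor differences were above 0 in hippocampus (median 0.19, panel -0.01), 5 in hypothalamus (median 0.10, panel 0.00) and 5 in brain stem (median 0.02, panel 0.00). At mid-dark the counts above 0 were 4, 3 and 4, with medians of 0.02, -0.05 and 0.04 beside panel medians of 0.00, 0.01 and -0.01. The interaction and both tumor differences share their samples, and the 3 regions share mice, so these counts are not separate pieces of evidence. The genes were chosen with such contrasts known, and the share of the panel on each side of 0 is not given. Nothing is therefore read from these signs and medians.

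None of the 7 genes passed an adjusted p of 0.05 in any tumor comparison or interaction. For mid-dark, mid-light and the interaction, the panel shares that passed were 0.13%, 0.13% and 0% of genes in hippocampus, 0%, 0% and 0% in hypothalamus, and for the brain stem 0.26%, 0.78% and 0%. At an unadjusted p under 0.05 in limma, the counts of the 7 genes were 0 at mid-dark, 5 at mid-light and 3 for the interaction in hippocampus, where the panel shares were 6.63%, 6.89% and 6.11%. In hypothalamus they were 2, 2 and 1 (panel 4.81%, 5.19% and 2.6%). In brain stem they were 0, 3 and 1 (panel 7.28%, 4.81% and 3.64%). The choice of these genes rests on such contrasts, so nothing is read from the counts.

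Other genes of the pathway were read between the phases over the 3 regions, where 13.5% of the panel passed. Of 10 further genes listed by name as p53 targets, 1 passed over the 3 regions. It was Ccng2, an unconventional cyclin of quiescent cells, which rose at mid-dark by 0.19 (SE 0.05, limma, adjusted p = 0.00422). Whether p53 controls Ccng2 in these brains was not tested. Fas, a death receptor, was at -0.16 (limma, adjusted p = 0.152). The list's median was 0.01, as was the panel's. Among 9 p53 regulators and partners, 1 passed, the acetyltransferase Crebbp, which rose by 0.14 (SE 0.03, limma, adjusted p = 0.00262). Chek1, a checkpoint kinase, was at 0.17 (adjusted p = 0.148). Of 13 DNA damage checkpoint sensors, none passed (3 at an unadjusted p under 0.05 in limma), and Bard1 was at 0.18 (adjusted p = 0.104).

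Of 11 cell cycle genes, 2 rose at mid-dark over the 3 regions, Cdk20 by 0.23 and Cdc7, a kinase of replication origins, by 0.24 (limma, adjusted p = 4.97e-04 and 0.00104), and 1 fell, Mcm6 of the replicative helicase, by 0.31 (limma, adjusted p = 0.00943). Of 8 immediate early genes, Jun rose by 0.21 and Bdnf by 0.20, and Egr1 fell by 0.57 (limma, adjusted p = 0.00133, 0.00848 and 8.52e-05). Of a list of 8 glucocorticoid induced genes only 2 were on the panel. Fkbp5 was at 0.15 (limma, adjusted p = 0.0631), and Slc10a6 at 0.01. In the interactions 0% of the panel passed in each region, so none of these lists could hold a gene that passed, and nothing is read from that.

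Genes most like each of the 7 were taken by Pearson r over the 56 samples after the region means were removed, among the 635 genes whose mean log2 value reached 5. The samples share mice and the same phase and tumor groups, and r is given as a description. Cdkn1a and Cables1 were each other's nearest gene (r = 0.62), followed by Rapgef3 (0.62) and Eif1 (0.57) for Cdkn1a and by Eif1 (0.59) and Fkbp5 (0.57) for Cables1. With the group means removed as well, r between Cdkn1a and Cables1 was 0.16, so within groups of mice they scarcely varied together. Rapgef3 and Eif1 were then at 0.28 and 0.27 with Cdkn1a, and Eif1 and Fkbp5 at 0.38 and 0.40 with Cables1. Gadd45g was nearest to Nfkbia (0.51), Trp53 (0.46) and Syp (0.39), and with group means removed these were at 0.28, 0.34 and 0.37. Trp53 was nearest to Kat2a (0.68), Sesn2 (0.65) and Clstn1 (0.65), and these values changed little with group means removed (0.65, 0.62 and 0.65). Sesn1 was nearest to Hmgb1 (0.65), Smc1a (0.60) and Tbp (0.59), Ddb2 to Abl1 (0.60), Kmt2c (0.52) and Inpp5d (0.49), and Mdm2 to Kdm2a (0.45), Pole (0.41) and Kmt2a (0.38). Trp53 itself was at -0.05 with Cdkn1a, 0.21 with Mdm2, 0.37 with Ddb2 and -0.26 with Sesn1, and with the group means removed the same pairs were at 0.27, 0.13, 0.29 and -0.31.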

How the data were processed

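RNA of 3 brain regions from 20 mice was assayed with a nanoString nCounter panel of 770 genes. The deposited values are log2 values. The authors processed nCounter counts in nSolver (subtraction of the negative control background, scaling to the positive controls and to the CodeSet content), quantile normalized them in Partek and excluded samples whose raw data were outlying. The depth is unknown, as no raw counts entered the work, and the number of mice limits the precision. Values of different samples can coincide after quantile normalization.

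With limma 3.58.1 in R 4.3.3, the 4 group means of a region were fitted together, and p values were adjusted by Benjamini-Hochberg over all genes. Genes with 1 value throughout a region (2 cases) were not tested there. Comparisons over regions used 12 group means with the mouse as a random block, since the 3 regions of a mouse carry the same number (correlation 0.136). The models were also run on simulated data, whose outcome is not reported here and on which no result rests. Figures were drawn in Python with matplotlib.

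The 7 genes, and the other gene lists and motifs, were chosen with earlier results of these data known. Further genes were named by fixed rules: the 3 nearest to each of the 7 by r, and up to 3 of each list by adjusted p over the 3 regions, beside genes that check the region. Some genes that these rules name are not reported here. Alternatives were ordinary p values, only the 2 groups compared, a minimum mean log2 value of 5, centring on sample medians, a second quantile step inside the region, exclusion of samples of a 260/280 ratio under 1.8, no block or a fixed block, and leaving out each mouse.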

Additional observations from a re-analysis of the deposited data

Results flagged for a closer look

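In 6 of 77 groups of 4 or 5 mice, the highest or lowest mouse stood apart from the others by Dixon's ratio (its gap to the nearest mouse over the range of the group); chance gives about 1 in 20, or 3.85 groups. Trp53 was lowest in mouse 1 of the tumor-bearing mid-light brain stems (7.47, the others from 7.78 to 7.83, ratio 0.859) and in mouse 7 of the tumor-bearing mid-dark hypothalami (7.41, the others from 7.60 to 7.63, ratio 0.864). Mouse 13 of the tumor-bearing mid-light brain stems was highest for Mdm2 (10.20, nearest 10.09, ratio 0.797) and Gadd45g (8.40, nearest 8.22, ratio 0.711). Sesn1 was lowest in mouse 4 of the vehicle injected mid-dark brain stems (9.91, nearest 10.09, ratio 0.949) and in mouse 8 of the vehicle injected mid-dark hippocampi (10.37, nearest 10.67, ratio 0.751).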

How the results depend on the processing

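Of 1218 recomputed phase and region values, 1138 kept direction and side of the threshold, 43 reversed (all for near-zero phase values), 30 lost and 7 gained a call; of 1617 tumor and interaction values, 4 moved by more than 1 SD between replicates, all of them brain stem values without the 260/280 ratios under 1.8. The cause was not tested. Without those samples, 1 of the 7 genes and 20 panel genes passed between the phases in brain stem (2 and 38 with all samples), and the phase differences of Mdm2, Ddb2 and Gadd45g there were 0.0151, 0.0458 and 0.0569. At an unadjusted p, the brain stem interaction then had 0 genes of the 7. The hippocampal mid-dark count was 1 with ordinary p values, 1 with only the 2 groups compared and 1 with sample medians subtracted, and with only the 2 groups compared the mid-light count was 3 in hippocampus and 1 in hypothalamus. The pairing of regions by mouse mattered for Trp53 over the 3 regions, at -0.114 (limma, adjusted p = 0.0315) with no replicate block. Leaving the block out changed no other call. A fixed block allowed only the region comparisons, since each mouse was collected at 1 phase, and it changed no region call.

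With each mouse left out, the phase comparison called 0 to 2 of the 7 genes and 27 to 51 panel genes in hippocampus, 0 to 1 and 11 to 21 in hypothalamus, and 1 to 2 and 25 to 42 in brain stem. Phase differences that crossed 0 in hippocampus were -0.0224 to 0.0534 (Trp53), -0.0133 to 0.00934 (Mdm2) and -0.0457 to 0.0141 (Sesn1). In hypothalamus they were -0.0291 to 0.0295 (Sesn1) and -0.00167 to 0.0877 (Cables1), and in brain stem -0.0379 to 8.63e-05 (Mdm2), -0.0931 to 0.0317 (Ddb2), -0.0089 to 0.0489 (Sesn1) and -0.0619 to 0.00600 (Gadd45g). Over the 3 regions Sesn1 ran from -0.0171 to 0.0246. The unadjusted tumor counts of the 7 genes ran from 0 to 2 at mid-dark and 2 to 5 at mid-light in hippocampus, from 1 to 2 and 1 to 3 in hypothalamus, and for the interaction from 1 to 2 in hypothalamus and 0 to 2 in brain stem. Depth is unknown, and 3 to 5 mice a group limit what could be detected.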
